A study of Mus musculus with 31 samples.

Results

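CD4+ T cells labelled pre-lymphoma, from mice whose genotype label joins a control and a Vav1-Myo1f fusion genotype by a slash, were compared with CD4+ T cells of control mice. The control/fusion group was chosen by its genotype label, in which CD4-Cre-ERT2(WT) stands before the slash and Vav1Myo1ffl/wt;CD4CreERT2 after it, and held 3 libraries. The control group carried the label CD4-Cre-ERT2(WT) and the status normal, and held 2 libraries. Together these were 5 of the 31 mouse libraries of the series. A further 3 pre-lymphoma libraries, whose label names the fusion genotype on both sides of the slash, are called fusion/fusion and served as a second point of comparison. All 8 libraries were of strain C57B/6, and each genotype label, that of the control included, names CreERT2 under CD4, a Cre recombinase that acts in the presence of tamoxifen. The labels do not say what the slash or the (WT) stands for, nor the age of the mice, any tamoxifen given, or whether each library is a separate animal. P-values therefore measure the spread between these libraries only.

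The exchange factor VAV1 links the T cell receptor (TCR) to the Rac GTPases and the actin cytoskeleton, and MYO1F is an unconventional class I myosin of blood cells. Fusions that join VAV1 to MYO1F occur in human peripheral T cell lymphoma and replace the carboxy-terminal part of VAV1, which restrains its activity. Naive CD4+ T cells rest in lymphoid organs under transcription factors such as TCF7, LEF1 and BACH2. After TCR signalling they divide and take on helper, regulatory or follicular programs.

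Gene counts summed to 13270078, 13235378 and 29257595 in control/fusion libraries 1, 2 and 3, and to 24513103 and 26007636 in control libraries 1 and 2. Control/fusion library 1 was the only female library of the 5 by its counts, with Xist at 886 CPM (counts scaled to library size by TMM) and Ddx3y at 0.225 CPM. The other 4 libraries had 0.449 to 0.901 CPM of Xist and 128 to 181 CPM of Ddx3y. Reads aligned to a single place that matched no gene made up 9.06%, 8.74% and 9.82% in control/fusion libraries and 10.9% and 12.8% in control libraries (exact two-sided permutation p = 0.1, the smallest that 10 arrangements allow). Their part in the results was not tested. The defining markers of the labelled cell type were present, as 8 CD4 T cell markers summed to 4603, 4930 and 5132 CPM in control/fusion libraries and 4792 and 4637 CPM in control libraries. Genes of other cells were present as well, since 19 macrophage markers summed to 8000, 3932 and 4637 CPM in control/fusion libraries and 2962 and 3864 CPM in control libraries. Cd4 itself had 963, 1050 and 1037 CPM in control/fusion libraries, against 1075 and 989.8 CPM in control libraries. The ranges overlapped (log2 fold change -0.02 ± 0.07, SE, adjusted p = 0.855 by edgeR).

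Of 16257 genes tested, 1885 were higher in control/fusion than in control cells (11.6%) and 1414 were lower (8.7%), 20.3% in either direction, at an adjusted p under 0.05 by the quasi-likelihood test of edgeR. Changes of more than 2-fold were found for 657 higher genes (4.04%) and 147 lower genes (0.904%). The median log2 fold change over all genes was 0.00. These percentages are the background against which counts of list members are read below. Leaving out control library 2 gave 522 higher and 330 lower genes, the lowest counts of any library left out. In that fit control library 1 alone stands for the controls and is assumed to vary like the other groups. Leaving out control library 1 gave 1280 and 904, and leaving out the female control/fusion library 1 gave 1429 (8.52%) and 922 (5.5%). Of the 3299 genes called with all libraries, 3282 had a value without control library 2 and 3287 without control library 1. Without control/fusion library 1, 3298 had a value. All of those kept their direction, which is no separate support, since the genes were called from these same libraries.

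**Figure D1:**
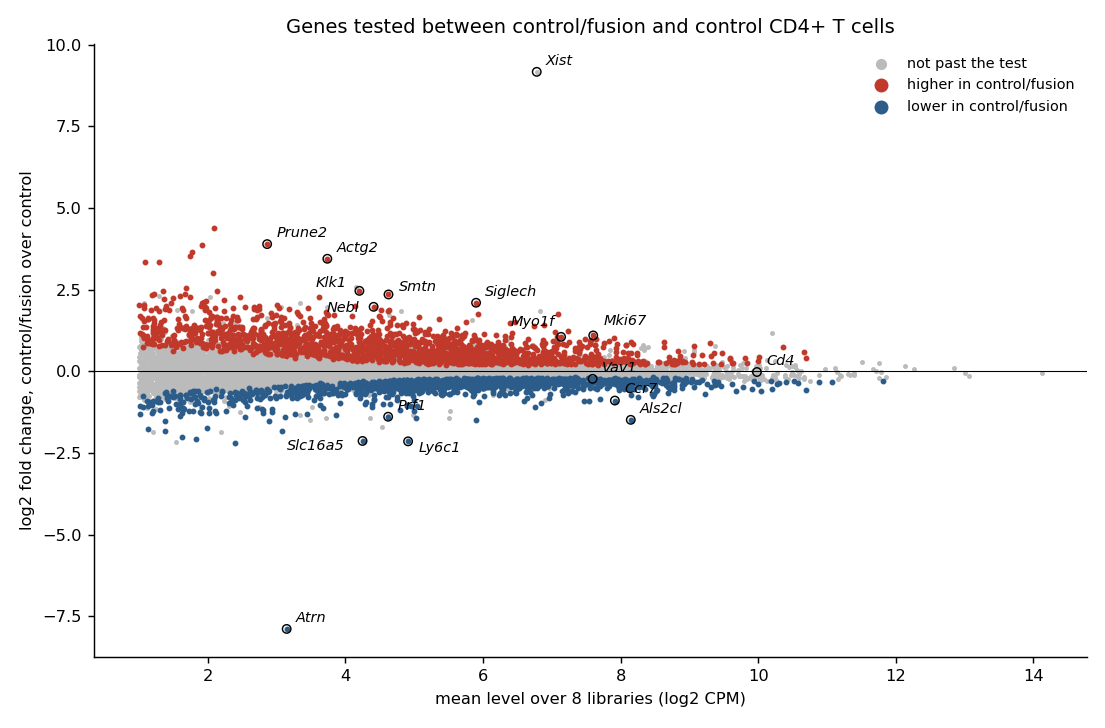
Log2 fold change of control/fusion over control (vertical axis) against the mean level over 8 libraries (horizontal axis, log2 CPM) for the 12577 genes with a mean of at least 1; red points were higher and blue points lower at an adjusted p under 0.05, and grey points did not pass. Atrn stands alone at -7.89, Prune2 and Actg2 lie at the top among the red points at 3.90 and 3.45, and Xist is high in the single female library and did not pass.

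The transcripts of the fusion partners moved in opposite directions. Myo1f (ENSMUSG00000024300; chromosome 17, 33555707 to 33607764, plus strand, GRCm38) had 149.9, 156 and 172 CPM in control/fusion libraries, against 83.0 and 70.7 CPM in control libraries. Each control/fusion library lay above both controls (1.05 ± 0.11, adjusted p = 0.00047). Vav1 (ENSMUSG00000034116; chromosome 17, 57279100 to 57328031, plus strand) had 207, 195 and 187 CPM in control/fusion libraries, against 237 and 225 CPM in control libraries. These ranges also did not overlap, with the control/fusion libraries lower (-0.23 ± 0.07, adjusted p = 0.0309). The Vav1 call was lost when control/fusion library 2 or 3 or either control library was left out, with changes of -0.20 to -0.27. Counts per gene do not separate transcripts of the fusion from those of the intact genes.

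**Figure D2:**
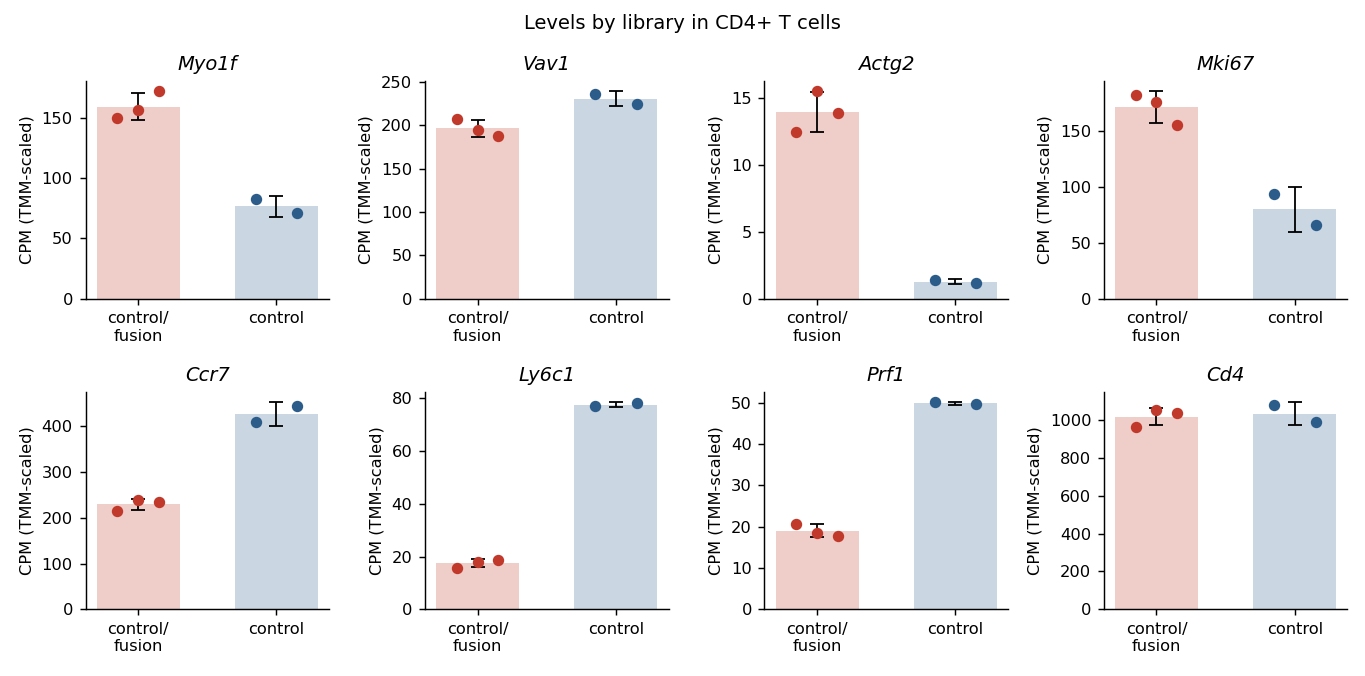
TMM-scaled CPM of 8 genes in CD4+ T cells, control/fusion (red, n = 3) left of control (blue, n = 2); points are libraries, bars means and error bars SD. Myo1f, Actg2 and Mki67 are higher in each control/fusion library than in both controls, Vav1, Ccr7, Ly6c1 and Prf1 lower, and Cd4 overlaps.

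The largest difference at a single locus was the near absence of Atrn from the control/fusion libraries. Atrn (ENSMUSG00000027312; chromosome 2, 130906495 to 131030333, plus strand) encodes attractin, a large transmembrane and secreted glycoprotein; in mice its loss gives the mahogany coat colour, and human activated T cells release a secreted form. It had 5, 0 and 2 counts in control/fusion libraries, against 791 and 780 counts in control libraries, or 0.375, 0 and 0.0690 CPM against 32.8 and 30.6 CPM. No control/fusion library came near a control library (-7.89 ± 0.38, adjusted p = 4.47e-06). Summed over the libraries, this was 0.126 against 31.1 CPM of all gene counts, 248-fold lower (exact 95% interval 120 to 617, covering counting error only). Of the 7 Atrn counts in control/fusion libraries, 5 came from library 1. Without that library the pooled level was 661-fold lower (interval 183 to 5460, from 2 counts) and the fitted change -9.23.

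The noncoding gene A730017L22Rik (ENSMUSG00000085566; chromosome 2, 130873059 to 130906396, minus strand) runs away from Atrn, and the annotated starts of the 2 genes lie 99 bases apart. It had 0 counts in all 3 control/fusion libraries, against 143 and 166 counts in control libraries. Against a floor of 3 counts over the control/fusion group this was at least 114-fold lower. It was named after its values were seen, as were Olfr372 and Prune2 below. On the same strand and starting slightly nearer to Atrn, the protein-coding gene 4930402H24Rik spans A730017L22Rik and did not pass the test (0.19). Since these 2 genes overlap on the same strand, how their reads were divided is uncertain. The 26 other genes tested with starts within 500 kb of the Atrn start had log2 fold changes of -0.73 to 1.66. The highest was that of Siglec1, a lectin of macrophages. Of these 26 genes, 3 were higher and 2 lower, near the shares of all genes (11.6% and 8.7%). Without control/fusion library 1 these counts were 2 and 1, without control/fusion library 2 or 3 they were 3 and 1, without control library 1 they were 1 and 1, and without control library 2 none passed. Siglec1 did not pass without either control library. The loss of counts was seen at Atrn and A730017L22Rik among the 28 genes tested in this window. The stretch around the Atrn start (RefSeq, GRCm38.p6, chr2:130906245-130906544, plus strand) is shown because both genes with lost counts start within or beside it. Capitals mark the 88 bases between the GENCODE M21 starts of 4930402H24Rik and Atrn.
Atrn: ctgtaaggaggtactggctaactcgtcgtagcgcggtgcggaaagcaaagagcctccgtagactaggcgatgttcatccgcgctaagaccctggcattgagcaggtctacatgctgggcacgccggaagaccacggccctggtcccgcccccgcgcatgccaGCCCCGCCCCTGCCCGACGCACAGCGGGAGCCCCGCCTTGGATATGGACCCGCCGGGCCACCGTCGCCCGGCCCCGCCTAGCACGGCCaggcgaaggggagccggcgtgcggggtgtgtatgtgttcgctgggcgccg

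The fusion/fusion libraries, which carry the second pre-lymphoma label, had 5, 2 and 2 counts of Atrn and 0 counts of A730017L22Rik. Outside both pre-lymphoma groups, 23 of 25 libraries of the series had 4.42 to 66.3 CPM of Atrn (without TMM scaling), among control and tumor samples. The other 2 libraries came from CD4+ cells and whole spleen of 1 mouse with a CD4-CreERT2 tumor, VM231, and had 1 and 0 counts of Atrn. A730017L22Rik had 33 and 12 counts in them, or 0.895 and 0.401 CPM (without TMM scaling). In CD4-CreERT2 control libraries it had 3.90 and 4.365 CPM in CD4+ cells and 3.24 to 4.62 CPM in whole spleen. The other CD4-CreERT2 tumor libraries had 1.17 to 5.06 CPM of it. Because all 3 control/fusion libraries lacked Atrn and both controls had it, what goes with the fusion label and what goes with the lost counts at this locus cannot be told apart in these 5 libraries.

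**Figure D3:**
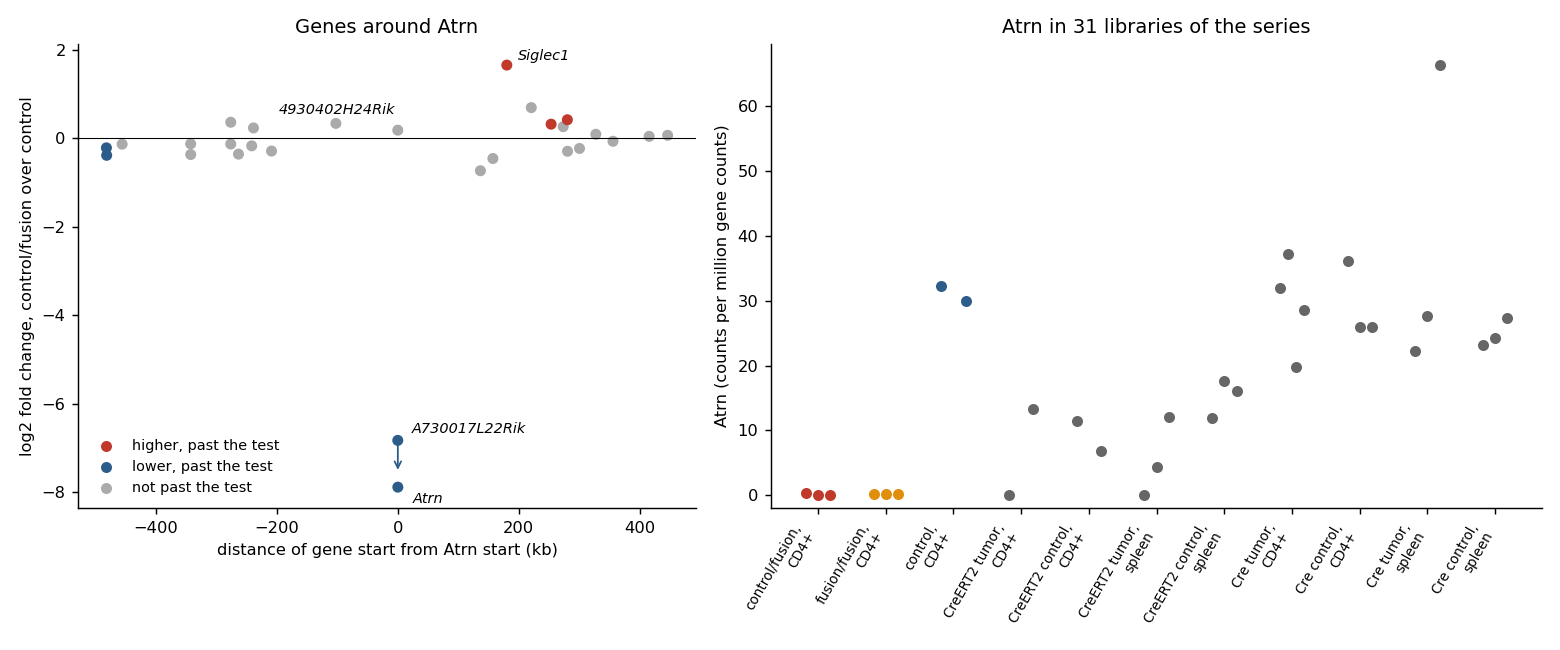
Left, log2 fold change of control/fusion over control against the distance of each gene's start from the Atrn start (kb) for the 28 genes tested within 500 kb, where the arrow at A730017L22Rik marks a bound; right, Atrn CPM (without TMM scaling) in 31 libraries, 1 point each, by group. Only Atrn and A730017L22Rik fall far below the other genes of the window, and the 6 pre-lymphoma libraries and 2 libraries of 1 tumor mouse sit near 0 while 23 others have at least 4.42.

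A search for genes with at least an 8-fold gap between the groups' ranges, run after values were seen, found 3 genes on each side. Besides Atrn and A730017L22Rik, the lower ones included Olfr372, an olfactory receptor gene on chromosome 8, at 0, 0 and 0.104 CPM in control/fusion and 1.33 and 1.45 CPM in control libraries. The higher ones included Actg2 and Prune2. Prune2 (chromosome 19) had 11.9, 7.14 and 6.59 CPM in control/fusion libraries, against 0.374 and 0.745 CPM in control libraries (3.90 ± 0.35, adjusted p = 0.000206).

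Actg2 had the largest rise among genes of a mean log2 CPM of at least 3 that met the naming rule given below. Actg2 (chromosome 6, 83512905 to 83536265, minus strand), the gamma actin of smooth muscle, had 12.4, 15.5 and 13.9 CPM in control/fusion libraries, against 1.41 and 1.14 CPM in control libraries. The 2 groups were far apart (3.45 ± 0.17, adjusted p = 4.47e-06). Smtn, which encodes the smooth muscle protein smoothelin, had 18.4, 16.4 and 14.5 CPM in control/fusion libraries, against 3.28 and 3.10 CPM in control libraries (2.35 ± 0.13). Nebl, which encodes the actin-binding protein nebulette of heart muscle, had 26.2, 30.8 and 28.01 CPM in control/fusion libraries, against 7.64 and 6.78 CPM in control libraries (1.97 ± 0.11). Each of these genes was higher in every control/fusion library than in both controls. Other large rises were the kallikrein Klk1 (2.46 ± 0.24), Tmem121b (2.04 ± 0.16), the GTPase activator Arhgap20 (1.90 ± 0.23), Adam11 (1.87 ± 0.29), Plxdc1 (1.81 ± 0.19), the semaphorin receptor Nrp2 (1.81 ± 0.14) and the kinase Melk, a gene of dividing cells (1.75 ± 0.23). Of the 19 smooth muscle and cytoskeletal actin genes as a whole, 7 rose and 2 fell, with a median of 0.13. The 2 that fell were Cnn3, a calponin (-0.57 ± 0.08), and Tagln2 (-0.35 ± 0.10). Leaving out control library 2 left 2 higher and 1 lower, and Tagln2 did not pass without control/fusion library 1 or 3 or either control library.

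After Atrn, the largest falls among genes of that level that met the naming rule were in Ly6c1 and Slc16a5. Ly6c1 (chromosome 15, 75044018 to 75048830, minus strand), a surface protein of memory T cells and other blood cells, had 15.7, 17.95 and 18.7 CPM in control/fusion libraries, against 77.0 and 78.3 CPM in control libraries. The groups were far apart, with little spread within either (-2.15 ± 0.10, adjusted p = 4.47e-06). Slc16a5, a member of the monocarboxylate transporter family, had 11.99, 9.91 and 11.1 CPM in control/fusion libraries, against 45.2 and 51.5 CPM in control libraries (-2.13 ± 0.13). Als2cl, related to the exchange factor alsin, had 208, 218 and 212 CPM in control/fusion libraries, against 558 and 633 CPM in control libraries (-1.49 ± 0.09). Tmie also fell (-1.44 ± 0.10); it lies on the other strand and overlaps Als2cl at the starts of the genes, where reads cannot be told apart without strand. Perforin (Prf1), the pore-forming protein of cytotoxic granules, had 20.8, 18.5 and 17.9 CPM in control/fusion libraries, against 50.1 and 49.6 CPM in control libraries (-1.39 ± 0.10). Further falls were in the class Ib MHC gene H2-Q10 (-1.84 ± 0.30), Slc28a2b (-1.50 ± 0.19), Cyp2d22 (-1.39 ± 0.16), Pdlim4 (-1.21 ± 0.14), the glutathione-cleaving enzyme Ggt5 (-1.18 ± 0.11) and Arhgap29 (-1.12 ± 0.14). H2-Q10 shares sequence with other H2-Q genes, so its counts are uncertain.

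Genes of mitosis were higher as a group. Of 24 mitosis and spindle genes tested, 23 were higher and none lower, with a median of 1.14, beside 11.6% of all genes higher and a median of 0.00. Mki67 (chromosome 7, 135689784 to 135716361, minus strand), a nuclear protein of cycling cells, had 183, 177 and 155 CPM in control/fusion libraries, against 94.2 and 66.0 CPM in control libraries. The groups did not overlap, and the controls differed more between themselves than the control/fusion libraries did in proportion (1.10 ± 0.13, adjusted p = 0.000742). Nusap1, which bundles spindle microtubules, had 23.99, 26.8 and 21.8 CPM in control/fusion libraries, against 9.96 and 7.96 CPM in control libraries (1.43 ± 0.12, adjusted p = 0.000176). Ube2c, the ubiquitin-conjugating enzyme of the anaphase-promoting complex, had 25.2, 22.2 and 16.9 CPM in control/fusion libraries, against 8.72 and 7.06 CPM in control libraries (1.43 ± 0.18). Hmmr, a spindle and hyaluronan-binding protein, had 12.97, 13.3 and 10.3 CPM in control/fusion libraries, against 5.89 and 3.69 CPM in control libraries (1.34 ± 0.19). All 24 members had a higher range in control/fusion than in control libraries, beside 26.4% of all genes. The member that did not pass was the spindle checkpoint kinase Ttk (0.66).

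The promoters of the 3 mitosis genes with the largest changes are shown because many mitosis genes are known to carry CCAAT boxes and a cell cycle homology element, TTTGAA, near their starts. Capitals mark each CCAAT or TTTGAA on either strand (300 bases each, 250 before to 50 after the RefSeq start, GRCm38.p6). The windows are chr2:119618048-119618347 (plus strand) for Nusap1, chr2:164769679-164769978 (plus) for Ube2c and chr11:40733388-40733687 (minus) for Hmmr.
Nusap1: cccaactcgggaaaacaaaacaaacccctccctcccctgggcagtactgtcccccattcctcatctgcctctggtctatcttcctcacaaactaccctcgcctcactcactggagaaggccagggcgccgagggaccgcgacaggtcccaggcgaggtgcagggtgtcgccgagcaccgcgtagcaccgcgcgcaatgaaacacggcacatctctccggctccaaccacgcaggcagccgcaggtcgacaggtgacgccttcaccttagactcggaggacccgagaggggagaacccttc
Ube2c: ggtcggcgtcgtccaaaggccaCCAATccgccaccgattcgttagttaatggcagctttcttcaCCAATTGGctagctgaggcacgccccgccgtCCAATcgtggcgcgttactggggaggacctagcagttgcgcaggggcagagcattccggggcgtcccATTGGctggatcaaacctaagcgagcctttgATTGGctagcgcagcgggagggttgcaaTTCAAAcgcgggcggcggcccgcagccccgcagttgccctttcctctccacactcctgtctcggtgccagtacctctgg
Hmmr: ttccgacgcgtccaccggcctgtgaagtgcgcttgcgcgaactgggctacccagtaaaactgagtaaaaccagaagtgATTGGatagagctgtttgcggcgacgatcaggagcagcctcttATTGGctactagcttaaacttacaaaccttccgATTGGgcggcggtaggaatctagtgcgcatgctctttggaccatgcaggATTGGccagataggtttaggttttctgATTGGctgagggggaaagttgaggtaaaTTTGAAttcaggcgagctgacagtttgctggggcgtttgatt
Ube2c had 6 CCAAT and 1 TTTGAA matches, a pair of its CCAAT matches overlapping on opposite strands. Hmmr had 5 and 1, and neither set of letters was in the Nusap1 window. Of 24 mitosis genes, 20 had a window in the RefSeq table, 21 windows in all. CCAAT was found in 19 of these (90.5%), against 37.4% of all 32851 windows. TTTGAA was found in 16 (76.2%), against 17.9% of all windows, and both in 16 (76.2%), against 6.95%. A match describes the letters of a window and is not evidence of binding.

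DNA replication genes rose in part. Of 22 tested, 15 were higher and none lower (median 0.66). The licensing factor Cdc6 had 13.1, 9.84 and 8.76 CPM in control/fusion libraries, against 5.15 and 3.84 CPM in control libraries (1.22 ± 0.20). The chromatin assembly factor Chaf1a (1.19 ± 0.20) and the replication factor Mcm10 (1.13 ± 0.18) were the next largest. Of 20 cyclins, cyclin-dependent kinase inhibitors and E2F factors, 7 were higher and 1 lower (median 0.22). The repressor E2f8 (1.36 ± 0.25), the D-type cyclin Ccnd1 (0.92 ± 0.11) and E2f1 (0.86 ± 0.14) were higher, and Cdkn1b, the inhibitor p27 of resting cells, was lower (-0.35 ± 0.06). With control library 2 left out, 20 mitosis, 7 replication and 4 cell cycle control genes were higher.

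**Figure D4:**
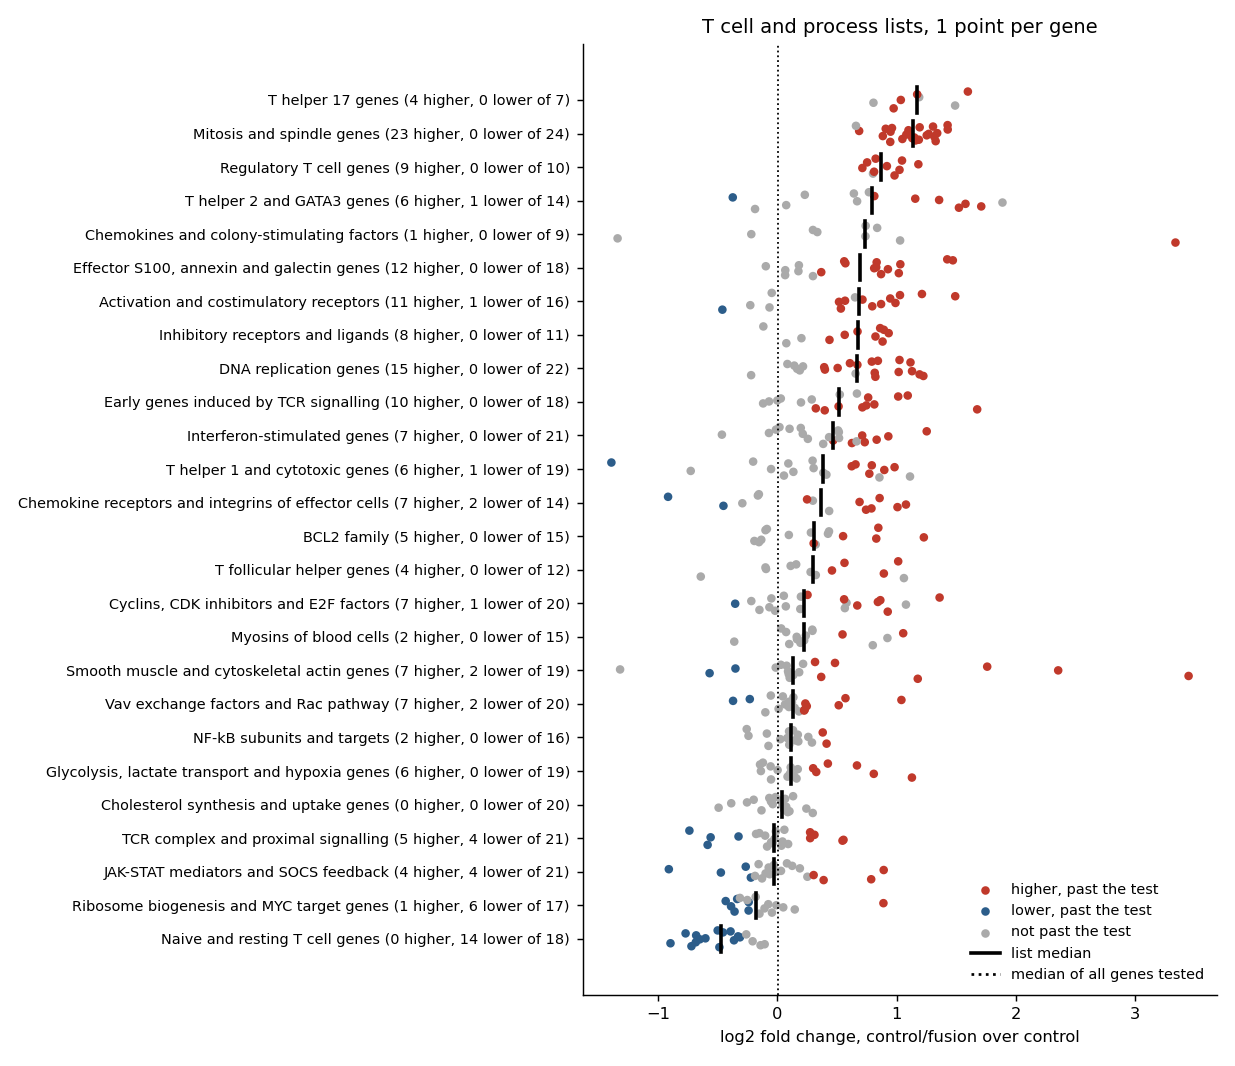
Log2 fold change of control/fusion over control (horizontal axis) for the tested members of 26 gene lists, 1 point per gene, sorted by list median (black bar); red and blue points passed the test as higher and lower, and the dotted line is the median of all genes. Mitosis genes lie at 0.66 to 1.43 with 23 of 24 red, while naive genes all lie below 0 with 14 of 18 blue.

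Genes of naive and resting T cells were lower as a group. Of 18 tested, 14 were lower and none higher (median -0.47), beside 8.7% of all genes lower. Ccr7, the receptor that brings naive cells to lymph nodes, had 215, 238 and 235 CPM in control/fusion libraries, against 409 and 446 CPM in control libraries. The groups were well apart (-0.90 ± 0.08, adjusted p = 0.000176). The chromatin organiser Satb1 had 308, 347 and 336 CPM in control/fusion libraries, against 560 and 567 CPM in control libraries (-0.77 ± 0.08). Bach2, a repressor of effector genes, had 101, 103 and 111 CPM in control/fusion libraries, against 176 and 171 CPM in control libraries (-0.72 ± 0.12). Without control library 2, 9 naive genes were lower.

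Early TCR-induced genes and receptors of activated cells were higher. Of 18 early genes induced by TCR signalling, 10 were higher and none lower (median 0.52). The phosphatase Dusp4 had 24.3, 21.2 and 20.8 CPM in control/fusion libraries, against 9.51 and 4.35 CPM in control libraries (1.67 ± 0.25). The nuclear receptor genes Nr4a3 (1.09 ± 0.16) and Nr4a2 (1.01 ± 0.20) rose with it. Of 16 activation and costimulatory receptors and ligands, 11 were higher and 1 lower (median 0.68). Tnfrsf9, the costimulatory receptor 4-1BB, had 76.3, 75.3 and 82.2 CPM in control/fusion libraries, against 33.3 and 22.3 CPM in control libraries (1.49 ± 0.15, adjusted p = 0.000326). The ligands Tnfsf14 (1.21 ± 0.10) and Tnfsf11 (1.03 ± 0.19) were also higher, and Cd27, a receptor of naive and memory cells, was lower (-0.46 ± 0.08). When control library 2 was left out, 6 early TCR-induced genes were higher and Nr4a2 did not pass.

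Members of 4 helper programs were higher in part, and 2 members were lower. Of 14 T helper 2 and GATA3 genes tested, 6 were higher and 1 lower (median 0.79). Gata3, the factor that directs T helper 2 cells, had 57.5, 60.3 and 56.1 CPM in control/fusion libraries, against 56.2 and 53.9 CPM in control libraries. Its ranges overlapped (0.07 ± 0.10, adjusted p = 0.654). The chemokine receptor Ccr8 had 17.6, 16.7 and 12.97 CPM in control/fusion libraries, against 5.98 and 3.61 CPM in control libraries (1.71 ± 0.23). The cytokine Il10 had 5.47, 4.58 and 4.80 CPM in control/fusion libraries, against 1.62 and 1.69 CPM in control libraries (1.58 ± 0.17). Ccr4, a receptor of T helper 2 and regulatory cells, was higher as well (1.52 ± 0.14), while the interleukin 4 receptor chain Il4ra was lower (-0.37 ± 0.10). Il4ra did not pass without control/fusion library 2 or 3 or either control library.

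Of 19 T helper 1 and cytotoxic genes, 6 were higher and 1 lower (median 0.38). Granzyme B (Gzmb) had 19.9, 20.1 and 19.3 CPM in control/fusion libraries, against 11.5 and 9.76 CPM in control libraries (0.90 ± 0.17), so it moved against perforin. The interleukin 12 receptor chain Il12rb2 was higher (0.98 ± 0.22). Gzmb did not pass without control library 2, nor Il12rb2 without control library 1. Of 7 T helper 17 genes tested, 4 were higher (median 1.17). Rora, a nuclear receptor of these cells, was higher by 1.17 ± 0.09 and the interleukin 1 receptor Il1r1 by 1.03 ± 0.20, and the cytokine gene Il17a stood at 1.49 and did not pass. Of 12 T follicular helper genes, 4 were higher (median 0.30), among them Tox2 (1.01 ± 0.23), Cd200 (0.89 ± 0.11) and Tox (0.56 ± 0.15). Without control library 2, 1 follicular helper gene was higher and 1 lower, and neither Tox2 nor Tox passed; Tox also did not pass without control/fusion library 2 or 3.

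Regulatory T cell genes were higher. Of 10 tested, 9 were higher and none lower (median 0.87). Itgae, the alpha E integrin CD103, had 94.1, 65.2 and 53.9 CPM in control/fusion libraries, against 33.7 and 28.6 CPM in control libraries (1.18 ± 0.20). Library 1 was the highest of the control/fusion libraries, and the groups did not overlap. Lrrc32, which presents latent TGF-beta on regulatory T cells, had 76.2, 76.5 and 81.9 CPM in control/fusion libraries, against 42.5 and 33.5 CPM in control libraries (1.04 ± 0.11). Gpr83, an orphan receptor of these cells, was also higher (1.02 ± 0.09). Their master factor Foxp3 rose by 0.81. In bulk libraries a larger share of cells of a type and more RNA per cell cannot be told apart.

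Of 11 inhibitory receptors and ligands, 8 were higher and none lower (median 0.67). Havcr2, the receptor TIM-3, had 21.97, 23.2 and 19.4 CPM in control/fusion libraries, against 11.7 and 10.8 CPM in control libraries (0.93 ± 0.13). Cd160 was higher by 0.88 ± 0.12. Pdcd1, the receptor PD-1, had 55.8, 54.2 and 60.5 CPM in control/fusion libraries, against 43.9 and 17.6 CPM in control libraries (0.89 ± 0.27, adjusted p = 0.0414). The controls lay far apart for Pdcd1, and it did not pass when any of control/fusion libraries 1, 2 or 3 or control library 2 was left out. The list count was 5 without control/fusion library 1 or 3, and 3 without control library 2. Of 14 chemokine receptors and integrins of effector cells, 7 were higher and 2 lower (median 0.37). Cxcr6, which guides effector cells to tissues, was higher (1.08 ± 0.13), as was the gut homing receptor Ccr9 (1.01 ± 0.17). The integrin chain Itgb3 (-0.92 ± 0.12) and the bone marrow homing receptor Cxcr4 (-0.45 ± 0.10) were lower. Leaving out control library 2 gave 4 higher and 1 lower, and Cxcr4 did not pass. Of 9 chemokines and colony-stimulating factors tested, Ccl1, a ligand of Ccr8, was the 1 that passed, a share near the 11.6% of all genes higher. Without control/fusion library 2, 2 passed. Ccl1 had 1.57, 1.43 and 0.966 CPM in control/fusion libraries, against 0.124 and 0.118 CPM in control libraries (3.34 ± 0.47).

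Close to the receptor, TCR signalling genes split. Of 21 tested, 5 were higher and 4 lower (median -0.03). Txk, a Tec family kinase, had 67.6, 73.7 and 82.1 CPM in control/fusion libraries, against 119 and 129.8 CPM in control libraries (-0.74 ± 0.08). Cd247, which encodes the receptor's zeta chain, had 250, 281 and 280.4 CPM in control/fusion libraries, against 398 and 414 CPM in control libraries (-0.59 ± 0.08). The adaptor Lat was lower (-0.33 ± 0.09), and the inhibitory coreceptor Cd5 was higher (0.55 ± 0.09). Lat did not pass without any single control/fusion library or without control library 2, and 2 genes of the list were higher without control library 2. Among counts of Trbv genes, which encode variable segments of the receptor's beta chain, the leading gene held 12.4%, 10.7% and 11.9% in control/fusion libraries, with exact 95% Clopper-Pearson intervals of 11.5% to 13.4%, 9.83% to 11.6% and 11.3% to 12.5%. It held 12.1% and 12.3% in control libraries, with intervals of 11.5% to 12.8% and 11.6% to 12.97%, which cover counting error only (exact two-sided permutation p = 0.7). The leading gene was Trbv3 in control/fusion library 2 and Trbv13-2 in the other 4.

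Genes of the VAV and Rac pathway were higher in part. Of 20 Vav exchange factors and Rac pathway genes, 7 were higher and 2 lower (median 0.13). Tiam1, a Rac exchange factor, had 124, 139.8 and 134 CPM in control/fusion libraries, against 81.8 and 47.4 CPM in control libraries (1.04 ± 0.18). Vav2 (0.57 ± 0.14) and the Rac target kinase Pak1 (0.51 ± 0.16) were also higher, and the GTPase Rhoh was lower (-0.37 ± 0.08). The count of higher genes was 2 without control/fusion library 1, 3 without control/fusion library 2 or 3 or control library 1, and 1 without control library 2. That of lower genes was 1 without control/fusion library 2 or 3 and 0 without either control library. Vav2 did not pass without control library 2, nor Rhoh without either control library, nor Pak1 without control/fusion library 1 or 3 or either control library. Of 15 myosins of blood cells, 9 had a higher range in control/fusion libraries, beside 26.4% of all genes. A lower range was seen for 1 of them, beside 26.3% of all genes. The list median was 0.22. By the test 2 were higher, a share near the 11.6% of all genes, and none was lower. The 2 were Myo1f and its relative Myo1e (0.55 ± 0.12), of which Myo1e did not pass without control library 2.

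Cytokine signalling genes of the JAK-STAT pathway also split, with 4 of 21 higher and 4 lower (median -0.03). Socs3, a feedback inhibitor of interleukin 6 signalling, had 131, 135 and 162 CPM in control/fusion libraries, against 265 and 271 CPM in control libraries (-0.91 ± 0.10). Socs2 (0.89 ± 0.14) and the interleukin 2 receptor beta chain Il2rb (0.79 ± 0.11) were higher. The kinase Pim2 (-0.47 ± 0.09) and Stat4 (-0.27 ± 0.07) were lower; Pim2 did not pass without control library 1, nor Stat4 without control/fusion library 1 or 2 or either control library. Leaving out a library brought the count of higher genes down to 2 (control/fusion 2 or 3, or control 2) and that of lower genes to 2 (control/fusion 1 or control 2) or 1 (control 1).

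S100, annexin and galectin genes of effector cells were higher, with 12 of 18 past the test and none lower (median 0.69). S100a6, a calcium-binding protein, had 88.5, 92.2 and 94.4 CPM in control/fusion libraries, against 36.0 and 32.4 CPM in control libraries (1.42 ± 0.12). S100a4 was higher by 1.47 ± 0.19 and S100a1 by 1.03 ± 0.27, but S100a1 not without control/fusion library 1 or 3 or either control library. Of 15 BCL2 family genes tested, 5 were higher (median 0.30), among them the survival gene Bcl2a1d (1.23 ± 0.16) and the death-promoting Pmaip1 (0.85 ± 0.13). Bcl2a1d and Bcl2a1b (0.83 ± 0.16) are near-identical copies, so their counts are uncertain. Without control library 2, 2 BCL2 family genes were higher and Bcl2a1b did not pass.

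Metabolic lists had small medians. Of 19 glycolysis, lactate transport and hypoxia genes, 6 were higher (median 0.11), led by the oxygen sensor Egln3 (1.13 ± 0.22), the hexokinase Hk2 (0.81 ± 0.14) and the lactate transporter Slc16a3 (0.67 ± 0.18). Only 2 were higher without control library 2, and Slc16a3 did not pass without it or without control/fusion library 3. None of 20 cholesterol synthesis and uptake genes passed by edgeR (median 0.04). Without adjustment 2 of them had p under 0.05, and 1 was called lower by DESeq2. Of 17 ribosome biogenesis and MYC target genes, 1 was higher and 6 lower (median -0.18). The higher gene was Odc1, the first enzyme of polyamine synthesis, with 124, 137 and 127 CPM in control/fusion libraries, against 79.2 and 60.1 CPM in control libraries (0.89 ± 0.12). Ppan (-0.43 ± 0.07) and Nop56 (-0.39 ± 0.06), both of ribosome assembly, were lower. The lower count was 3 without control/fusion library 3 and 2 without control library 2.

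Of 21 interferon-stimulated genes, 7 were higher and none lower (median 0.47). Rsad2, the antiviral protein viperin, had 20.4, 16.1 and 18.2 CPM in control/fusion libraries, against 7.72 and 7.57 CPM in control libraries (1.251 ± 0.21). Mx1 (0.93 ± 0.19) and Ifit3 (0.83 ± 0.26) were also higher. This count depended on the fit, with 14 higher when the fusion/fusion libraries were left out of it, 4 without control/fusion library 2 or 3, 3 without control library 1 and 2 without control library 2. Mx1 did not pass without control library 2, nor Ifit3 without any single one of the 5 libraries. Of 16 NF-kB subunits and targets, 2 were higher, a share near the 11.6% of all genes. They were Cd83 (0.41 ± 0.10) and Relb (0.38 ± 0.09). The count was 4 without control library 1 and 0 without control library 2.

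Genes that mark other cell types also differed, and their part in the gene groups above was not tested. Of 9 dendritic cell markers, 8 were higher (median 0.92), and their summed level was 231 to 307 CPM in control/fusion and 109 to 144 CPM in control libraries. Siglech, of plasmacytoid dendritic cells, had 79.7, 73.5 and 48.7 CPM in control/fusion libraries, against 21.6 and 9.68 CPM in control libraries (2.099 ± 0.31). Xcr1, of the cross-presenting kind, had 10.1, 8.19 and 8.21 CPM in control/fusion libraries, against 2.45 and 2.98 CPM in control libraries (1.69 ± 0.18). The growth factor receptor Flt3 was higher by 1.13 ± 0.20, but not without control library 2, when 3 dendritic cell markers passed. Of 9 MHC class II genes, 6 were higher (median 0.48), summing to 3008 to 3711 CPM in control/fusion and 2461 to 2757 CPM in control libraries. H2-Aa, a class II alpha chain, was among them (0.49 ± 0.09), with H2-Oa (0.56 ± 0.15) and the class II activator Ciita (0.51 ± 0.15). None of these 6 passed without control library 2, and neither Ciita nor H2-Oa did without control/fusion library 2 or 3.

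Erythroid and macrophage markers were highest in the female control/fusion library 1. Of 13 erythroid markers tested, 8 were higher (median 1.76), and they summed to 677, 164 and 268 CPM in control/fusion libraries and 75.3 and 157 CPM in control libraries. The haemoglobin gene Hba-a1, whose near-identical copy Hba-a2 can share its reads, had 132, 27.9 and 47.3 CPM in control/fusion libraries, against 13.5 and 26.7 CPM in control libraries (1.76 ± 0.53). Without control/fusion library 1 the erythroid median was 0.99 with 3 markers higher, and the count was 0 and 2 without control libraries 1 and 2. The band 3 gene Slc4a1 (2.01 ± 0.58) and Alas2 (1.94 ± 0.60) lost the call without control/fusion library 1 or either control library, and Hba-a1 without either control library. Of 19 macrophage and monocyte markers, 4 were higher (median 0.71), with the sums given above. Timd4, a receptor of tissue macrophages, had 43.6, 18.3 and 20.8 CPM in control/fusion libraries, against 7.72 and 9.998 CPM in control libraries (1.62 ± 0.36). Cd5l (1.22 ± 0.33) and Adgre1, the F4/80 antigen (1.01 ± 0.29), were also higher. The median was 0.37 without control/fusion library 1, the count 12 without control/fusion library 2, and no macrophage marker passed when either control library was left out.

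Some members of further marker lists also passed, beside 11.6% of all genes higher and 8.7% lower. A single higher gene in a list of 8 or 10 is near that share and was not read as a result about the list. Of 10 genes of alternatively activated macrophages, Clec10a passed as higher (1.41 ± 0.38), but not without control/fusion library 1 or 2 or control library 2. Of 10 stromal and endothelial markers tested, the endothelial genes Kdr (2.44 ± 0.35) and Cdh5 (2.01 ± 0.28) were higher, while the list summed to 251 to 253 CPM in control/fusion and 246 to 258 CPM in control libraries. Of 12 B cell markers, 3 were lower, among them Fcer2a (-0.49 ± 0.12) and Cd79a (-0.34 ± 0.10). Of the list, 2 were lower without control/fusion library 1 or 2, and 0 and 1 without control libraries 1 and 2. Fcer2a did not pass without either control library, nor Cd79a without control/fusion library 1 or 2 or either control library. Kit (1.18 ± 0.24) among 3 mast cell and basophil genes, Ncr1 (0.92 ± 0.21) among 6 NK cell markers and Prdm1 (0.29 ± 0.08) among 8 plasma cell markers were higher. The NK cell list had a median of 0.02, with 1 member of higher and 1 of lower range. Its sums overlapped, at 67.7, 44.5 and 52.5 CPM in control/fusion libraries and 41.1 and 56.7 CPM in control libraries. Ncr1 was therefore not read as a result about its list. Kit did not pass without control library 2, Ncr1 not without either control library, and Prdm1 not without control/fusion library 1 or 3 or either control library. By edgeR no member passed among 9 neutrophil, 2 CD8 T cell, 5 megakaryocyte and 10 mitochondrially encoded genes. With p unadjusted and under 0.05 there were 1, 1, 1 and 0 genes, and none by DESeq2. A single neutrophil gene was lower without control/fusion library 3, and 1 CD8 T cell gene without control/fusion library 2. Of 10 dissociation and heat shock genes, Atf3 was higher and none lower, and Atf3 did not pass without any single control/fusion library or without control library 2.

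**Figure D5:**
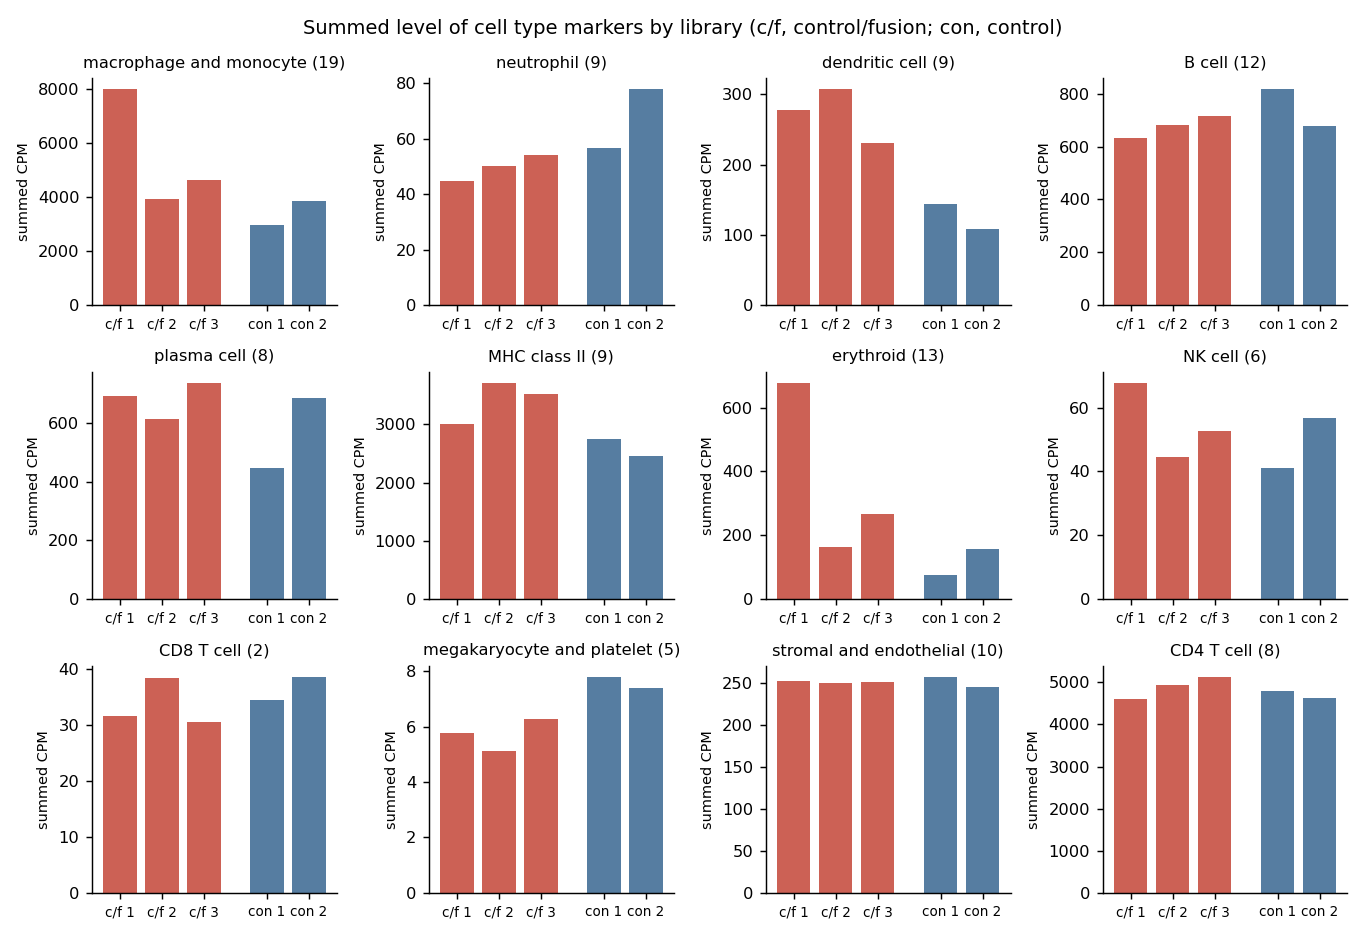
Summed CPM of the tested members of 12 marker lists (number of genes in brackets) in each control/fusion library (red, left) and each control library (blue, right). Dendritic cell markers are higher in all 3 control/fusion libraries, erythroid and macrophage markers stand out in control/fusion library 1, and CD4 T cell markers lie between 4603 and 5132 CPM throughout.

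Against fusion/fusion cells, control/fusion cells had 1512 genes higher (9.3%) and 1559 lower (9.59%) by edgeR in the same fit. Both comparisons use the control/fusion libraries, so their values stand side by side here without a test of likeness. Myo1f had 149.9, 156 and 172 CPM in control/fusion and 143, 180 and 171 CPM in fusion/fusion libraries, and the ranges overlapped (-0.04 ± 0.10, adjusted p = 0.799). Vav1 was higher in control/fusion cells (0.26 ± 0.06), with 207, 195 and 187 CPM against 162, 161 and 169 CPM in fusion/fusion cells. Gata3 had 57.5, 60.3 and 56.1 CPM in control/fusion and 94.0, 124 and 104 CPM in fusion/fusion libraries (-0.89 ± 0.09, adjusted p = 0.000397). Atrn had at most 5 counts in any library of either group. The first component of a principal component analysis held 51.8% of the variance. On it control/fusion libraries lay at -4.23, -11.7 and -6.02, between fusion/fusion libraries at 39.0 to 54.1 and control libraries at -52.3 and -60.4. On the second component (16.6%) control/fusion libraries lay at -44.2, -26.85 and -0.622, below both other groups. Control libraries lay there at 10.79 and 26.15, and fusion/fusion libraries at 0.1636 to 18.86.

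All 24 mitosis genes were lower in control/fusion than in fusion/fusion cells, as were 16 of 22 replication genes and 11 of 14 T helper 2 genes, and 15 of 18 naive genes were higher. Igfbp4, of naive cells, had 442, 543 and 434 CPM in control/fusion and 128, 126 and 142 CPM in fusion/fusion libraries (1.84 ± 0.10). Other genes higher in control/fusion cells were the AMP deaminase Ampd1 (1.83 ± 0.21), Stra6l (1.71 ± 0.28), the endocytic receptor Lrp1 (1.42 ± 0.24), Amigo2 (1.39 ± 0.10) and the potassium channel Kcnj16 (1.31 ± 0.26). The macrophage lectin Chil3 had 2.25, 3.15 and 4.24 CPM in control/fusion and 48.9, 258 and 37.3 CPM in fusion/fusion libraries (-5.07 ± 0.76). The chemokine Ccl8 (-3.85 ± 0.30), Sostdc1 (-3.30 ± 0.66), the arginase Arg1 (-2.63 ± 0.60), Nrgn (-2.38 ± 0.24) and the lysozyme Lyz1 (-2.24 ± 0.26) were lower too. Arg1 did not pass without fusion/fusion library 2, where it was highest. Counts over all genes fell to 981 higher and 958 lower without control/fusion library 2, to 769 and 813 without fusion/fusion library 2, and to 851 and 994 without fusion/fusion library 3; the lower count was 1024 without control/fusion library 3.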

How the data were processed

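Per the labels, polyA RNA was amplified by SMART-Seq v4, made into libraries with Nextera XT and read on a HiSeq. Per the submitters' processing notes, HISAT2 2.1.0, HTSeq 0.5.4 and mm10 were used; the annotation release and strand setting are not given in the sources used here. The deposited tables hold the authors' raw counts per gene symbol. Closing rows of unassigned reads stayed out of library sizes and tests. After a low-count filter (filterByExpr) and TMM scaling, the two-sided quasi-likelihood F test of edgeR 4.0.16 (R 4.3.3) was run in 1 fit of all 8 libraries, with 5 residual degrees of freedom and Benjamini-Hochberg adjustment over 16257 genes. Errors of log2 fold changes are the change over the square root of F. Counts of 15871 genes were simulated for control/fusion against control, with 50 genes changed at each fold. The test recovered 34% of 1.5-fold, 58% of 2-fold and 94% of 4-fold rises and 72% of 0.5-fold changes, with 5 false calls. The share of changed genes was far below the 20.3% called in the data. The adjustment depends on that share, so these rates do not carry over to the data.

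By rule, these genes are named: 5 fixed genes (Myo1f, Vav1, Mki67, Gata3 and Cd4); in each list up to 3 passing members of largest change at a mean log2 CPM of 1 or more, and up to 2 opposed to the majority (with none passing, the 2 best expressed); and 12 genes of largest rise and 12 of largest fall at a mean log2 CPM of 3 or more, with ranges that did not overlap and a pass without control/fusion library 1 as well (6 and 6 against fusion/fusion), excluding gene models, sex-linked and ribosomal protein genes, pseudogenes and antigen receptor segments. A part of these names is printed. Other names were chosen after their values were seen. There were 43 lists with 595 genes; members and lists were chosen with earlier results of these data known. Of 16257 symbols tested, 16020 matched GENCODE M21 (GRCm38), the source of identifiers and coordinates. Alternatives were RLE scaling, scaling without antigen receptor, haemoglobin and mitochondrial genes, no filter, DESeq2 1.42.0, a fit of only the groups compared, and each library left out.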

Additional observations from a re-analysis of the deposited data

How the results depend on the processing

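Against control, the counts were 1885 higher and 1414 lower. They were 1900 and 1378 with RLE scaling, 1928 and 1353 when antigen receptor, mitochondrial and haemoglobin genes took no part in the scaling, 2454 and 1682 without the low-count filter, 1862 and 1265 with DESeq2, and 1625 and 1274 in the 5-library fit. Leaving out 1 library at a time gave 522 to 1636 higher and 330 to 1051 lower; 514 and 310 of the genes called without control library 2 were also called with all libraries. These fits hold fewer libraries; any further cause was not tested. Against fusion/fusion, leaving out 1 library gave 769 to 1579 higher and 813 to 1571 lower. Of the 3299 genes called against control, the 3267 to 3299 with a value under an alternative kept their sign there. Since the same libraries picked these genes, this is no separate support. Another scaling moved the median of all log2 fold changes by 0.00233 (RLE) or 0.00516.

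No paired analysis was possible because the labels give these libraries no replicate numbers shared between groups. With 3 against 2 libraries, an exact permutation of labels cannot go below p = 0.1, and depth as low as 13235378 counts limits genes of a few counts. The pooled Atrn fold without control/fusion library 1 and the counts of genes around Atrn with libraries left out were chosen after seeing the data.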
